A study of Mus musculus with 2 samples.

Results

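The 9 genes described here act in retinoid and aldehyde metabolism and were chosen by symbol: the retinaldehyde dehydrogenases Aldh1a1, Aldh1a2 and Aldh1a3, the aldehyde dehydrogenase Aldh3a1, the retinoic acid carriers Crabp1 and Crabp2, the receptors Rarb and Rarg, and the hydroxylase Cyp26b1. All 9 symbols were found among 56694 genes, and the list was chosen with earlier results of these data known. A further 50 genes of vitamin A handling, retinoic acid reception and aldehyde oxidation were counted beside them.

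Retinoic acid is made from vitamin A inside cells and acts on transcription through nuclear receptors. Retinol is oxidised to retinaldehyde, retinaldehyde dehydrogenases of the ALDH1A group turn retinaldehyde into retinoic acid, small carrier proteins hold the acid in the cytosol or bring it to its receptors, and enzymes of the CYP26 family hydroxylate it for removal. In skin, vitamin A status is known to affect keratinocyte differentiation, sebaceous glands and hair growth.

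Single-cell RNA was measured in back skin at postnatal day 2 in 2 libraries. The Gli2EKO library came from K14Cre transgenic mice with both Gli2 alleles floxed, and the control library, labelled WT, came from floxed littermates without Cre. The Krt14 promoter drives Cre in keratinocytes and not in fibroblasts or melanocytes, so only the epithelium was targeted. Both samples were prepared as epidermal sheets from which digested dermis was pipetted away, so the dermal cells are those that stayed attached, and the number of mice behind each library is not given in the sources used here.

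The question addressed was in which follicle, epidermal and dermal cells each gene was found, and whether its level differed between the libraries. The control library held 71021773 UMIs (transcripts counted once each) over 6326 barcodes and the Gli2EKO library 48866478 UMIs over 4296 barcodes, with no shared barcode. Filtering of cells and of likely doublets left 4457 control and 3094 Gli2EKO cells. Cells were clustered without the 9 genes and the 50 others, and clusters were named from marker genes. The names carry the ending "-like" because they rest on markers alone. Follicle cells, sebaceous-like cells included, made up 61.6% of control and 46.3% of Gli2EKO cells, interfollicular epidermal (IFE) cells 12.9% and 28.3%, and dermal cells (fibroblast-like and dermal papilla-like) 19.1% and 20.9%. Gli2 itself gave 98.2 CPM in control and 99.0 CPM in Gli2EKO follicle cells, and 36.2 and 67.7 CPM in epidermal cells. The assay reads the polyA end of transcripts and the exons flanked by loxP sites are not given in the sources used here, so the labels of genotype cannot be checked by Gli2 counts.

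Levels are in CPM. For each class and library, the UMIs of the gene were added up over cells and divided by all UMIs of these cells, times 1000000. Ranges in parentheses are exact 95% intervals. They cover counting error only and treat UMIs as independent, although many UMIs of a gene can come from a few cells. With 1 library per genotype there is no replicate, no test was made, and a difference between the genotypes cannot be told apart from a difference between 2 libraries. A log2 ratio sets the CPM of Gli2EKO cells over that of control cells. Where no UMI was found, the value said to be allowed is not an exact limit. It is the level that 3 UMIs would give, or the share that 3 cells would give.

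**Figure D1:**
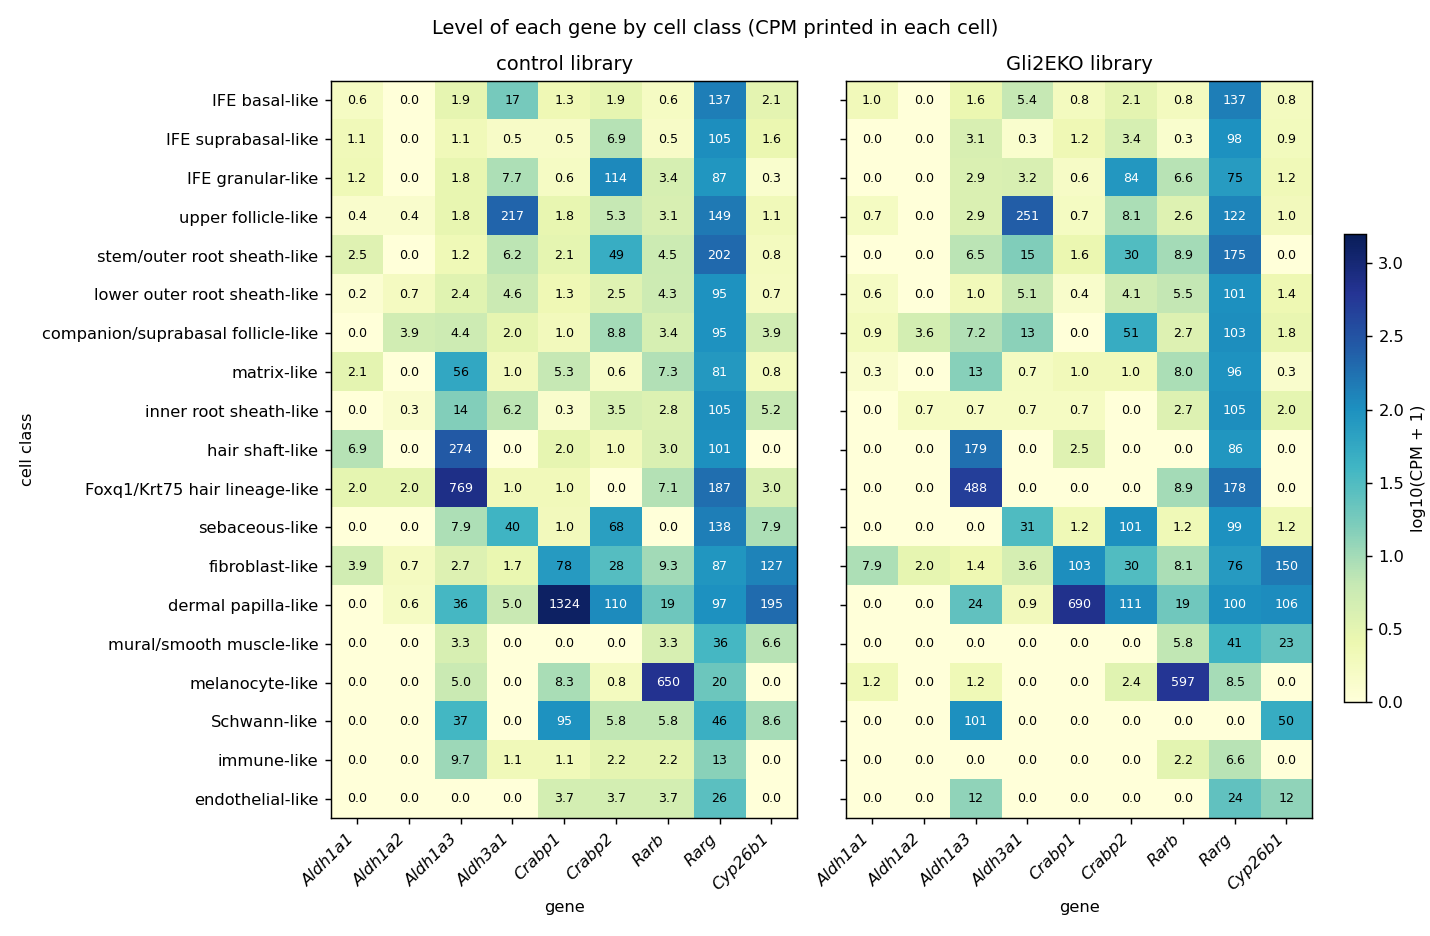
Level of the 9 genes in 19 cell classes, with the control library on the left and the Gli2EKO library on the right. The printed value is the CPM and the colour is log10(CPM + 1). Aldh1a3, Aldh3a1, Crabp1, Rarb and Cyp26b1 are each above 100 CPM in 1 or 2 of the classes with at least 20 cells, whereas the column of Rarg is coloured in nearly all rows. The Gli2EKO Schwann-like class holds 3 cells.

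Most of the 9 genes were concentrated in few cell classes. The unevenness of each gene was given by tau, an index over the 17 classes with at least 20 cells in each library that is 0 for a gene at the same level in all classes and 1 for a gene found in a single class. Among the 8 members with at least 50 UMIs in a library, 6 had a tau over 0.8 in control and 6 in Gli2EKO, beside 19.7% of all such genes in control and 18.2% in Gli2EKO. Crabp1 reached 0.94 and 0.95, Rarb 0.92 and 0.91, Aldh3a1 0.89 and 0.91, Cyp26b1 0.89 and 0.89, and Aldh1a3 0.86 and 0.88. Aldh1a1 had 0.85 and 0.95, from only 76 and 62 UMIs. Crabp2 had 0.74 and 0.73. Rarg, the main retinoic acid receptor of epidermis, had the lowest values, 0.37 and 0.33. Since the members were chosen with earlier results of these data known, the counts over 0.8 describe this list and are no test of it.

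Aldh1a3, on chromosome 7 from 66040638 to 66077850 on the minus strand of GRCm39, was found mainly in the hair lineages. In control cells it stood at 769 CPM (716 to 826) in Foxq1/Krt75 hair lineage-like cells, followed by hair shaft-like cells at 274 CPM (242 to 308) and matrix-like cells, the dividing cells of the hair bulb, at 55.5 CPM (50.2 to 61.3). The intervals of these 3 classes did not overlap. The Foxq1/Krt75 class alone held 45.3% of all Aldh1a3 UMIs of the control library while making up 2.29% of its cells. Inner root sheath-like cells gave 14.2 CPM. Aldh1a3 was also the second gene by enrichment in the Foxq1/Krt75 cluster, although it was kept out of the clustering. The other keratinocyte classes lay between 1.07 and 7.88 CPM. Outside the keratinocytes, the highest level in a class with at least 20 cells in each library was in dermal papilla-like cells, at 35.6 CPM.

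The Gli2EKO library had the same first and second class for Aldh1a3 at lower levels, 488 CPM (401 to 589) in Foxq1/Krt75 hair lineage-like and 179 CPM (140 to 226) in hair shaft-like cells. The log2 ratio was -0.66 (-0.96 to -0.37) in the former, with 760 control and 110 Gli2EKO UMIs, and -0.61 (-1.01 to -0.23) in the latter. Of the hair shaft markers, S100a3 had 2055 CPM in control and 10911 CPM in Gli2EKO cells of that class. Krt35 had 4105 and 4992 CPM, whereas Selenbp1 had 456 and 174 CPM. The part of these markers in the hair shaft-like ratio was not tested. Aldh1a3 in the matrix-like class differed more, with 396 UMIs (55.5 CPM) in 514 control cells and 38 UMIs (13.3 CPM) in 212 Gli2EKO cells, a log2 ratio of -2.06 (-2.58 to -1.58). Of the 8 matrix markers, 6 were also lower in the Gli2EKO cells of this class, among them Msx1 with 186 CPM in control and 61.9 CPM in Gli2EKO and Cldn10 with 159 and 93.1 CPM, and the 6 keratinocyte markers summed to 2213 and 4671 CPM there. Their part in the Aldh1a3 difference was not tested. Inner root sheath-like cells held 41 UMIs in control and 1 in Gli2EKO. The 41 lay in 11 of 230 control cells, and the 5 highest cells held 85.4%. Of the markers of that class, Krt71 had 2374 CPM in control and 4775 CPM in Gli2EKO, and Tchh had 1228 and 3449 CPM. Krt28 had 1016 and 1069 CPM and Gata3 had 336 CPM in each. The part of these markers in the difference was not tested. Over all follicle cells, Aldh1a3 had 44.4 CPM in control and 14.2 CPM in Gli2EKO, 3.14-fold lower, with a log2 ratio of -1.65 (-1.85 to -1.46). When the Gli2EKO classes were weighted by their shares in control follicle cells, the log2 ratio was -0.91. Foxq1/Krt75 hair lineage-like cells were 102 of 2745 control and 36 of 1433 Gli2EKO follicle cells, and matrix-like cells were 514 and 212 of them.

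The Aldh1a3 UMIs were unevenly shared among cells. In the control matrix-like class, 57 of 514 cells (11.1%) held them, 1 cell held 81, and the 5 highest cells held 43.9%. The matrix-like log2 ratio ranged from -3.46 without the 5 highest cells of each library to -1.44 at clustering resolution 1.0. Without the 5 highest cells, that of the Foxq1/Krt75 class was -1.29. When each cell was assigned by its own UMIs, the level in the Foxq1/Krt75 class was 382 CPM in control and 106 CPM in Gli2EKO, against the reported 769 and 488 CPM. In the Foxq1/Krt75 class the 5 cells were a larger part of the 36 Gli2EKO than of the 102 control cells. After each cell was thinned to 2000 UMIs, 53.9% (43.8% to 63.8%) of control and 42.9% (26.3% to 60.6%) of Gli2EKO cells of the Foxq1/Krt75 class had an Aldh1a3 UMI, and these intervals overlapped. Unthinned shares were 77.5% and 66.7%, at median depths of 9726 and 5658 UMIs per cell. Immune-like and endothelial-like cells, taken as background, had 1.74% in control and 0 of 44 cells in Gli2EKO, which allows a share of up to 6.82%. The 4 genes that named the class were also lower in its Gli2EKO cells: Foxq1 had 489 CPM in control and 213 in Gli2EKO, Krt75 364 and 142, Krt23 273 and 71.0, and Krt90 96.2 and 44.4. The part of this difference in the Aldh1a3 values was not tested.

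Aldh1a1 and Aldh1a2, the other enzymes that make retinoic acid, were rare. Aldh1a1 (chromosome 19, 20469539 to 20622825, plus strand) had 76 UMIs in control and 62 in Gli2EKO, and Aldh1a2 (chromosome 9, 71122630 to 71203527, plus strand) had 31 and 16. Aldh1a2 had no UMI in epidermal cells of either library, which allows up to 0.266 CPM in control and 0.195 CPM in Gli2EKO. Fibroblast-like cells held 42.1% of the Aldh1a1 UMIs in control and 71.0% in Gli2EKO, at 3.90 CPM (2.67 to 5.51) and 7.91 CPM (5.75 to 10.6), a log2 ratio of 1.02 (0.33 to 1.72). All 32 control UMIs and 42 of the 44 Gli2EKO UMIs of this class came from cluster 1, led by Clec3b, C1qtnf3, Rbp4, Ly6a and Tnxb. The highest control level was in hair shaft-like cells, at 6.94 CPM (2.79 to 14.3) from 7 UMIs, whereas Gli2EKO had no UMI there, which allows up to 7.57 CPM. The few Aldh1a2 UMIs lay mostly in companion/suprabasal follicle-like cells (8 in control and 4 in Gli2EKO), lower outer root sheath-like cells (7 and 0) and fibroblast-like cells (6 and 11). In follicle cells Aldh1a1 had 34 UMIs in control and 8 in Gli2EKO, with a log2 ratio of -1.14 whose interval (-2.46 to -0.0018) reached almost to 0. Aldh1a2 had 24 and 5 UMIs there, with a log2 ratio of -1.32 whose interval (-3.06 to 0.10) held 0.

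**Figure D2:**
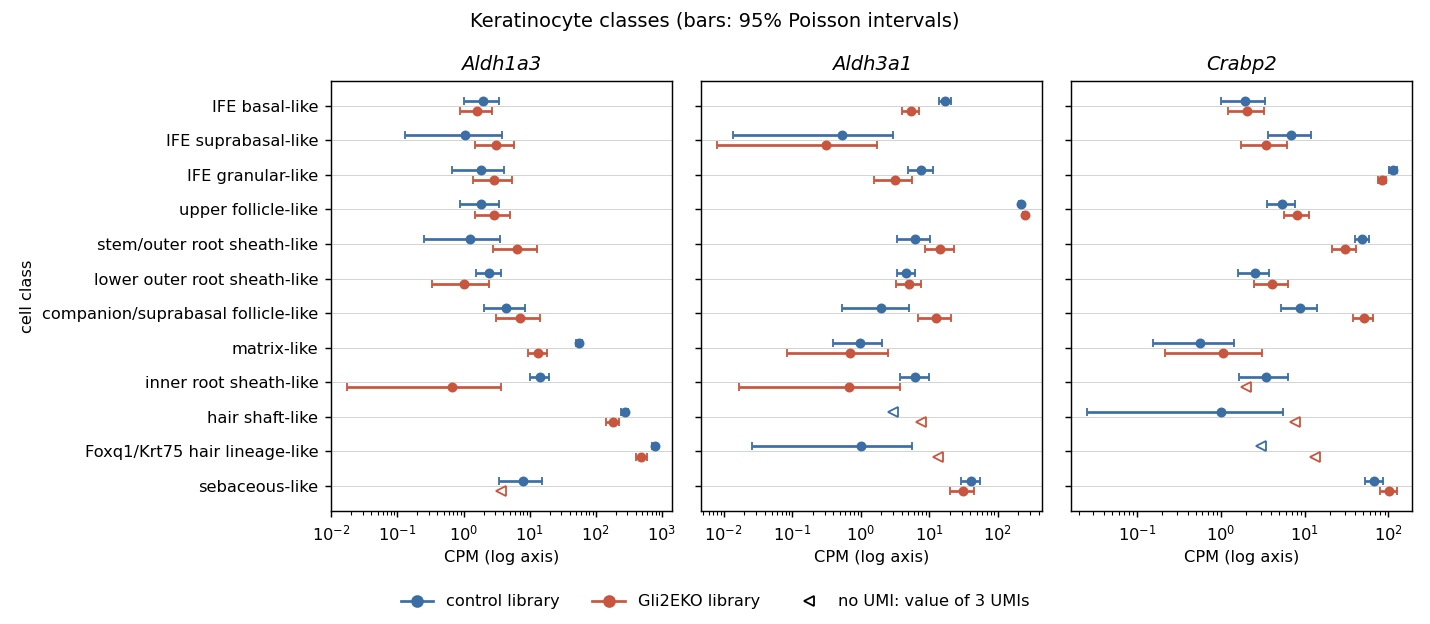
Levels of Aldh1a3, Aldh3a1 and Crabp2 in 12 keratinocyte classes on a log axis of CPM. Points are the level in 1 library, bars are 95% Poisson intervals, and open triangles mark classes with no UMI at the value that 3 UMIs would give. Aldh1a3 is highest in the Foxq1/Krt75 hair lineage-like class in both libraries, Aldh3a1 in the upper follicle-like class, and Crabp2 in IFE granular-like cells in control (114 CPM) and sebaceous-like cells in Gli2EKO (101 CPM, from 4 of 26 cells).

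Aldh3a1 encodes an enzyme that oxidises aldehydes from lipid peroxidation and is best known from the cornea. It lies on chromosome 11 from 61098363 to 61109247 on the plus strand. It marked the upper follicle-like class, which held 80.5% of its UMIs in control and 86.3% in Gli2EKO, and it was the gene with the largest enrichment in that cluster although it was kept out of the clustering. Its level there was 217 CPM (205 to 230) in control and 251 CPM (236 to 267) in Gli2EKO, a log2 ratio of 0.21 (0.09 to 0.33). Under 10 alternatives that ratio ranged from 0.039 without doublet removal to 0.38 as a mean over cells, and 5 of them lay within the interval. Sebaceous-like cells were second with 40.4 CPM (29.0 to 54.8) and 30.8 CPM (19.9 to 45.5), intervals that overlapped. An Aldh3a1 UMI was found in 24.1% (20.1% to 28.6%) of control and 31.1% (25.7% to 37.0%) of Gli2EKO upper follicle-like cells thinned to 2000 UMIs, and in 49.8% and 57.1% unthinned, with median depths of 12798.5 and 14988 UMIs. The background share was 0.870% in control and 0 of 44 in Gli2EKO.

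The Aldh3a1 log2 ratio had opposite signs in follicle and epidermis. Follicle cells had 37.7 CPM in control and 62.9 CPM in Gli2EKO, a log2 ratio of 0.74 (0.62 to 0.85), and the value was 0.21 with the Gli2EKO classes weighted as in control. Epidermal cells had 11.6 and 3.84 CPM, 3.02-fold lower, with a log2 ratio of -1.59 (-2.06 to -1.14). Of the 131 control UMIs of epidermal cells, 105 were in IFE basal-like cells, and 93 of these were in basal cluster 10, led by H19, Limch1, Sox6 and H3c3, where Gli2EKO had 45. These UMIs were concentrated: 23 of 356 control IFE basal-like cells held all 105, the 5 highest held 61.9%, and in Gli2EKO 14 of 561 cells held 47. The IFE basal-like log2 ratio was -1.65 and ranged from -3.58 to -0.80 over the alternative settings, below 0 in all 10 of them. The summed level of 7 fibroblast markers in IFE basal-like cells was 132 CPM in control and 254 CPM in Gli2EKO, with none of the 7 at 0 in either. Fibroblast-like cells themselves had 1.71 CPM of Aldh3a1 in control and 3.59 CPM in Gli2EKO. The part of the fibroblast markers in the result was not tested.

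Crabp2 binds retinoic acid and delivers it to nuclear receptors. It lies on chromosome 3 from 87855973 to 87860683 on the plus strand and had more than 1 site of high level. In control cells the order was IFE granular-like at 114 CPM (103 to 126), dermal papilla-like at 110 CPM (94.3 to 127), sebaceous-like at 67.9 CPM (52.9 to 86.0) and stem/outer root sheath-like at 48.5 CPM (40.2 to 58.1). Neighbours in this order overlapped in their intervals except dermal papilla-like and sebaceous-like cells. In Gli2EKO it was dermal papilla-like at 111 CPM (91.95 to 133), sebaceous-like at 101 CPM (80.3 to 125), IFE granular-like at 84.0 CPM (74.6 to 94.2) and companion/suprabasal follicle-like at 50.6 CPM (38.2 to 65.7). The sebaceous-like level rests on few cells: 1 of 44 control cells held 61 of 69 UMIs, and 4 of 26 Gli2EKO cells held all 82. IFE basal-like cells were low, with 1.95 and 2.07 CPM. Within the epidermis the level was thus highest in the IFE granular-like class. Its marker Lor was found in 46.4% of control and 37.9% of Gli2EKO cells of that class. Whether the same cells held Crabp2 was not tested.

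Between the libraries, Crabp2 was lower in Gli2EKO IFE granular-like cells (log2 ratio -0.44, -0.67 to -0.22) and in stem/outer root sheath-like cells (-0.70, -1.27 to -0.15), with 118 control and 37 Gli2EKO UMIs in the latter. All 7 markers of the IFE granular-like class were lower in its Gli2EKO cells as well, among them Lor with 7951 CPM in control and 474 CPM in Gli2EKO, Flg with 6107 and 2757 CPM, and Lce1a1 with 2918 and 35.2 CPM, and their part in the Crabp2 result was not tested. Dermal papilla-like cells had a log2 ratio of 0.02 (-0.33 to 0.36). In dermal papilla-like cluster 5 alone, described with Crabp1, it was 0.47 (0.10 to 0.84), with 166 CPM in control and 230 CPM in Gli2EKO, and in fibroblast-like cluster 0 it was -0.62 (-1.10 to -0.14), with 63.8 and 41.6 CPM, whereas in fibroblast-like cluster 2 it was 0.82 (0.24 to 1.39), with 28.5 and 50.4 CPM. Over all epidermal cells the log2 ratio was -0.75 (-0.97 to -0.54), and -0.44 with the Gli2EKO classes weighted as in control, where IFE granular-like cells made up 125 of 576 control and 140 of 875 Gli2EKO epidermal cells. In follicle cells the log2 ratio was 0.71 (0.45 to 0.97), with 274 control and 232 Gli2EKO UMIs, but the value was 0.42 without the 5 highest cells of each library. The largest difference in a class was in companion/suprabasal follicle-like cells, with 18 UMIs (8.80 CPM) in control and 56 UMIs (50.6 CPM) in Gli2EKO, a log2 ratio of 2.52 (1.74 to 3.38). Here 9 of 96 Gli2EKO cells held the 56 UMIs and the 5 highest held 89.3%. Without the 5 highest cells of each library the log2 ratio was 0.74, and when the libraries were not integrated before clustering it was -0.29. The 7 fibroblast markers summed to 478 CPM in control and 112 CPM in Gli2EKO cells of this class. Of its own markers, Krt79 had 2342 CPM in control and 5080 CPM in Gli2EKO, and Krt16 had 5.86 and 59.6 CPM. Cst6 had 3436 and 5122 CPM and Krt6a 984 and 1078 CPM, whereas Klk10 was lower in Gli2EKO, with 280 and 212 CPM. The part of all these markers in the result was not tested.

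Crabp1 binds retinoic acid in the cytosol and is known in mouse skin as a gene of the dermal papilla, the mesenchymal cells at the follicle base. It lies on chromosome 9 from 54671171 to 54680403 on the plus strand. Dermal papilla-like cells held 73.3% of its UMIs in control and 55.1% in Gli2EKO, and fibroblast-like cells 22.1% and 42.9%. The dermal papilla-like level was 1324 CPM (1269 to 1382) in control and 690 CPM (641 to 742) in Gli2EKO, 1.92-fold lower, with a log2 ratio of -0.94 (-1.06 to -0.82). In fibroblast-like cells the sign was the opposite, with 77.8 CPM (71.9 to 84.1) in control and 103 CPM (94.4 to 111) in Gli2EKO, a log2 ratio of 0.40 (0.23 to 0.56). Thinned to 2000 UMIs, 58.2% (51.0% to 65.3%) of control and 51.0% (42.9% to 59.0%) of Gli2EKO dermal papilla-like cells had a Crabp1 UMI, with intervals that overlapped. Such a share counts a cell once however many UMIs it holds, so it cannot be set against the difference in level. Unthinned shares were 73.7% and 66.9% at median depths of 7872.5 and 6569 UMIs, and thinned background cells had none, 0 of 115 in control and 0 of 44 in Gli2EKO, which allows shares of up to 2.61% and 6.82%.

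The dermal papilla-like class was made of 2 clusters that the libraries filled unequally. Cluster 5, led by Dcc, Kcnd2, Rspo2, Fgf7 and Fgf14, held 112 control and 59 Gli2EKO cells, and cluster 3, led by Prokr2, Clstn2, Tfap2c, Prdm1 and Bmp7, held 82 and 98. Crabp1 was higher in cluster 5, at 1906 CPM in control and 1321 CPM in Gli2EKO, a log2 ratio of -0.53 (-0.67 to -0.39). In cluster 3 it was 342 and 269 CPM, a log2 ratio of -0.35 (-0.65 to -0.05). Both ratios within clusters were thus smaller in size than that of the whole class. The fibroblast-like difference was likewise not found within the clusters that held most of the UMIs: cluster 0 had 204 CPM in control and 228 CPM in Gli2EKO, cluster 7 had 245 and 220 CPM, and cluster 6 had 77.6 and 74.5 CPM, with intervals of the log2 ratio that held 0 in each. The 8 dermal papilla markers summed to 6726 CPM in control and 5468 CPM in Gli2EKO cells of the class, with none at 0. The 6 melanocyte markers summed to 41.2 and 232 CPM there, and their part in the result was not tested.

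Outside the dermis Crabp1 was sparse. Follicle cells held 77 control and 14 Gli2EKO UMIs (2.21 and 0.774 CPM, log2 ratio -1.51, -2.45 to -0.68), of which 38 and 3 were in matrix-like cells. The follicle ratio ranged from -1.82 to -0.68 over 12 alternatives. The 7 fibroblast markers summed to 1687 CPM in control and 1540 CPM in Gli2EKO matrix-like cells, and Dcn led matrix-like cluster 4. The 8 dermal papilla markers summed to 6.03 and 5.95 CPM in matrix-like cells. The part of these markers in the Crabp1 result was not tested. In Schwann-like cells the 33 control UMIs lay in 2 of 26 cells, 32 of them in 1.

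**Figure D3:**
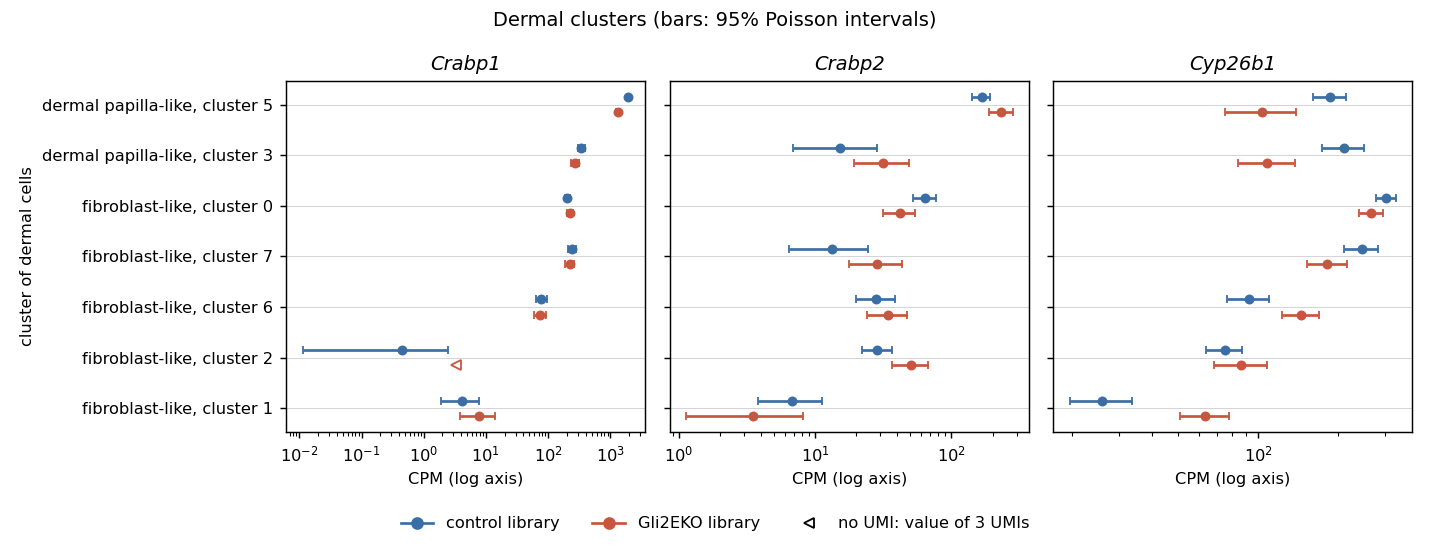
Levels of Crabp1, Crabp2 and Cyp26b1 in the 7 named clusters of dermal cells on a log axis of CPM. Points are the level in 1 library and bars are 95% Poisson intervals, and the open triangle marks a cluster with no UMI at the value that 3 UMIs would give. Crabp1 and Crabp2 are highest in dermal papilla-like cluster 5, and Cyp26b1 is lower in Gli2EKO in both dermal papilla-like clusters and higher in fibroblast-like clusters 1 and 6.

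Cyp26b1 hydroxylates retinoic acid and so ends its action. It lies on chromosome 6 from 84548396 to 84570890 on the minus strand. It was the hydroxylase of the dermal cells, with 1367 of 1444 control UMIs and 951 of 989 Gli2EKO UMIs in them. The relatives Cyp26a1 and Cyp26c1 had too few UMIs to compare: in the compartments and named classes, 1 UMI of Cyp26a1 was found in control matrix-like cells, and none of Cyp26c1. In control, Cyp26b1 stood at 195 CPM (174 to 218) in dermal papilla-like and 127 CPM (119 to 135) in fibroblast-like cells. In Gli2EKO the order was turned, with 106 CPM (87.7 to 128) in dermal papilla-like and 150 CPM (140 to 160) in fibroblast-like cells. The log2 ratios were -0.87 (-1.20 to -0.56) and 0.24 (0.11 to 0.37), and over all dermal cells 0.05 (-0.07 to 0.17). As a mean over cells the fibroblast-like ratio was 0.065, below its interval.

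Cyp26b1 was lower in Gli2EKO in both dermal papilla-like clusters. Cluster 5 had 186 CPM in control and 103 CPM in Gli2EKO (log2 ratio -0.85, -1.35 to -0.37) and cluster 3 had 210 and 108 CPM (-0.95, -1.40 to -0.52). Among fibroblast-like clusters the highest level was in cluster 0, led by Coch, Nrg1 and Cpne5, with 303 and 266 CPM (log2 ratio -0.19, -0.38 to 0.01). Cluster 1 had 25.8 and 63.4 CPM (log2 ratio 1.30, 0.80 to 1.80) and cluster 6, led by Prc1, Mxd3 and the cell division gene Top2a, had 121 and 157 UMIs (0.65, 0.30 to 1.00), whereas cluster 7, led by Prss35 and Dscam, had 245 and 182 CPM (-0.43, -0.76 to -0.10). A Cyp26b1 UMI was found in 28.4% (22.1% to 35.2%) of control and 18.5% (12.7% to 25.4%) of Gli2EKO dermal papilla-like cells thinned to 2000 UMIs, and in 55.2% and 36.9% unthinned. In fibroblast-like cells the thinned shares were 22.6% (19.4% to 26.1%) and 24.4% (20.6% to 28.5%). None of the 115 control and 44 Gli2EKO background cells had one after thinning. In control dermal papilla-like cells, unthinned, a Cyp26b1 UMI was found in 55.9% of cells with Crabp1 and 52.9% of cells without. In Gli2EKO the shares were 41.9% and 26.9%.

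Rarb and Rarg are retinoic acid receptors, which bind DNA together with RXR partners at paired half-sites. Rarb is a textbook target of its own ligand, through a direct repeat of the half-site in its promoter. The 300 bases from 250 before to 50 after a start site were searched for pairs of half-sites in the same direction on either strand and 5 bases apart. A half-site was either the letters AGGTCA or, in place of these, the letters AGTTCA or else the variant spelled GGGTCA or lastly the variant spelled GGTTCA, in any combination. Sequences of RefSeq promoters (GRCm38.p6) were at hand for 6 members: Aldh1a1, Aldh1a2, Crabp1, Rarb, Rarg and Cyp26b1. Such a pair was found in 32 of 32851 promoters (0.0974%) and in 1 of the 8 member promoters, that of Rarb. Pairs 2 or 1 bases apart were found in 0.268% and 0.222% of all promoters and in none of the 8. The Rarb promoter is shown because of this match, with the pair and its spacer in capitals, 53 to 37 bases before the start site. It matched chr14:5894037-5894336 of GRCm39 on the plus strand, within the Rarb gene (5650540 to 6041094).
Rarb promoter: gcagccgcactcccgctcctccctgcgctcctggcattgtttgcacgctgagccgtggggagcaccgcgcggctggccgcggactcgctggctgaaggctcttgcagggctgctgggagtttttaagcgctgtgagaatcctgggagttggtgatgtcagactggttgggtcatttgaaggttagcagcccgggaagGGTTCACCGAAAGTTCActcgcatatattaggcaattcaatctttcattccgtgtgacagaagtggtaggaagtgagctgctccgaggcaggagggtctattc
A match is a run of letters and does not show that a receptor binds there in these cells.

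Rarb was a melanocyte gene in these libraries. Melanocyte-like cells held 73.5% of its UMIs in control and 72.0% in Gli2EKO, while making up 2.36% and 2.17% of cells. Their level was 650 CPM (606 to 697) in control and 597 CPM (545 to 653) in Gli2EKO, a log2 ratio of -0.12 (-0.29 to 0.04), so no difference was detectable at this depth. Thinned to 2000 UMIs, 69 of 105 control cells (65.7%, 55.8% to 74.7%) and 44 of 67 Gli2EKO cells (65.7%, 53.1% to 76.8%) had a Rarb UMI, and unthinned shares were 82.9% and 88.1%. None of 115 control and 44 Gli2EKO background cells had one after thinning. The class was clear by its markers, with Dct at 17999 and 19360 CPM. Dermal papilla-like cells were next in order among the classes, at 19.4 CPM (13.2 to 27.5) and 18.8 CPM (11.5 to 29.1). The 6 melanocyte markers summed to 41.2 and 232 CPM in them, beside 33701 and 36553 CPM in melanocyte-like cells. Their part in the Rarb level was not tested. Follicle cells had 4.45 and 5.09 CPM, with a log2 ratio of 0.19 (-0.19 to 0.58), and epidermal cells 1.42 and 2.02 CPM. Fibroblast-like cells had 9.27 CPM in control and 8.09 CPM in Gli2EKO, with a log2 ratio of -0.20 (-0.76 to 0.35). Of their 76 control and 45 Gli2EKO UMIs, cluster 0 held 24 and 7, with a log2 ratio of -1.51 (-2.97 to -0.25). Cluster 7 held 38 and 20, at 50.6 and 27.2 CPM, with a log2 ratio of -0.90 (-1.76 to -0.08). Without doublet removal the Rarb level of the melanocyte-like class was 189 CPM in control and 206 CPM in Gli2EKO.

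Rarg (chromosome 15, 102143373 to 102165952, minus strand) was found in all keratinocyte and dermal classes. In control it was highest in stem/outer root sheath-like cells, at 202 CPM (184 to 220), and Foxq1/Krt75 hair lineage-like cells, at 187 CPM (161 to 216), whose intervals overlapped. In Gli2EKO the same classes had 175 CPM (152 to 200) and 178 CPM (127 to 242). The other keratinocyte classes lay between 81.2 and 149 CPM in control and between 75.3 and 137 CPM in Gli2EKO. Melanocyte-like and immune-like cells were lowest among classes with at least 20 cells, with 19.8 and 12.9 CPM in control and 8.55 and 6.60 CPM in Gli2EKO. With 6198 and 4318 UMIs it had more than any other member. The Rarg log2 ratio was -0.02 (-0.10 to 0.06) in follicle, -0.03 (-0.13 to 0.08) in epidermal and -0.16 (-0.32 to -0.01) in dermal cells. Among classes its interval lay below 0 in upper follicle-like (-0.29, -0.45 to -0.13), sebaceous-like (-0.48, -0.90 to -0.08) and fibroblast-like cells (-0.20, -0.37 to -0.02) and above 0 in matrix-like cells (0.23, 0.02 to 0.44). Of the matrix-like clusters, cluster 4, with 502 and 220 UMIs, had 0.12 (-0.12 to 0.35), and cluster 12, with 77 and 53 UMIs and a median of 5429 UMIs per cell, had 0.85 (0.31 to 1.37). In IFE basal-like cells the value was 0.0011 (-0.13 to 0.13).

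**Figure D4:**
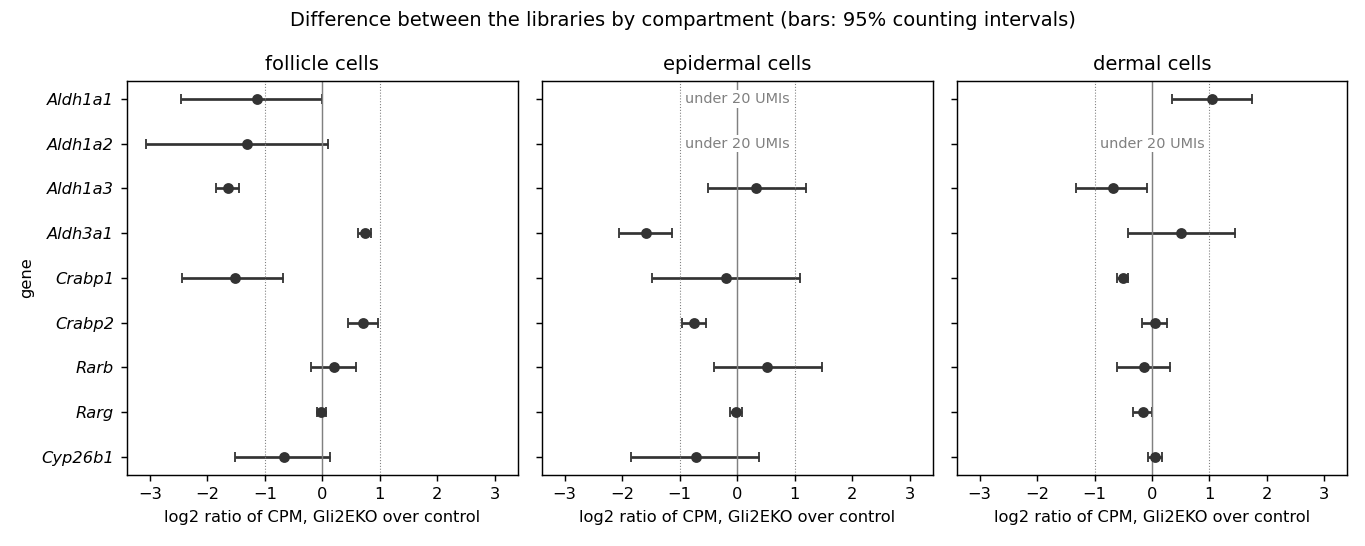
Log2 ratio of CPM, Gli2EKO over control, for the 9 genes in follicle, epidermal and dermal cells, with exact 95% intervals for counting error as bars. Dotted lines mark 2-fold. Aldh1a3 and Crabp1 lie beyond 2-fold lower in follicle cells, and Aldh3a1 does in epidermal cells. In follicle cells Aldh1a1 (34 control and 8 Gli2EKO UMIs) and Aldh1a2 (24 and 5, with an interval that holds 0) do so on few UMIs. Aldh1a1 lies beyond 2-fold higher in dermal cells, and Rarg is near 0 in all 3. Gene and compartment pairs with under 20 UMIs over both libraries show no point.

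Across compartments, the members with at least 50 UMIs over both libraries were counted by whether they differed at least 2-fold. In follicle cells 7 members reached this depth, of which 0 were higher and 2 lower in Gli2EKO (Aldh1a3 and Crabp1), beside 3.29% of all genes that differed 2-fold in either direction. In epidermal cells 1 of 4 was lower (Aldh3a1) and none higher, beside 3.18% of all genes. In dermal cells 1 of 7 was higher (Aldh1a1) and none lower, beside 1.66%. Each of these calls fell short of 2-fold under some alternative. The log2 ratio nearest 0 was -0.91 for Aldh1a3 and -0.68 for Crabp1 in follicle cells. It was -0.91 for Aldh3a1 in epidermal cells and 0.93 for Aldh1a1 in dermal cells. The members' median log2 ratios were -0.022, -0.39 and -0.14, beside -0.068, -0.041 and -0.0081 over all genes. These counts are small, and they describe a list chosen with earlier results of these data known.

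The genes upstream, which take up, store and oxidise retinol, were counted in the same way. In follicle cells 2 of 15 measured genes were higher in Gli2EKO and none lower, beside 3.29% of all genes that differed 2-fold in either direction, with a median log2 ratio of 0.33. Adh1, an alcohol dehydrogenase that oxidises retinol, had 2.58 CPM in control and 5.75 CPM in Gli2EKO, and Bco1, which cleaves beta-carotene to retinaldehyde, 0.574 and 2.43 CPM. Of the Bco1 UMIs of follicle cells, 14 of 20 in control and 36 of 44 in Gli2EKO were in inner root sheath-like cells. Of the markers of that class, Krt71 had 2374 CPM in control and 4775 CPM in Gli2EKO. Krt27 had 569 and 1495 CPM, and Gata3 had 336 CPM in each. The part of these markers in the Bco1 difference was not tested. In epidermal cells 2 of 11 were lower and none higher, beside 3.18% of all genes. These were Dhrs9, a retinol dehydrogenase, with 2.84 CPM in control and 1.24 CPM in Gli2EKO, and Adh7, an alcohol dehydrogenase, with 17.1 and 8.27 CPM. Rbp4, which carries retinol in blood, had 44.4 CPM in control and 84.8 CPM in Gli2EKO dermal cells, a log2 ratio of 0.93 (0.75 to 1.12), and was found in fibroblast-like cells. Stra6, the receptor that takes up retinol from Rbp4, shared its highest class with Aldh1a3: in Foxq1/Krt75 hair lineage-like cells it had 75.9 CPM in control and 75.5 CPM in Gli2EKO, and in follicle cells 5.19 and 3.76 CPM.

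None of the receptors, partners and carriers other than the members differed 2-fold, with 9 measured in follicle, 9 in epidermal and 10 in dermal cells. The shares of all genes that differed 2-fold were low as well, at 3.29%, 3.18% and 1.66% in these compartments. Rara had log2 ratios of -0.03, 0.14 and -0.23 in the 3 compartments, and Rxra, its common partner, -0.15, 0.02 and -0.30. None of the other aldehyde dehydrogenases differed 2-fold either, with 14, 13 and 10 measured, beside the same shares of all genes. Aldh2, the mitochondrial enzyme that removes acetaldehyde, had 115 and 122 CPM in follicle cells. Aldh3b2 was highest in sebaceous-like cells, with 304 CPM in control and 366 CPM in Gli2EKO.

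Among 10 genes known to respond to retinoic acid, 9 were measured in follicle cells, of which Rarres1 was higher in Gli2EKO (9.35 and 28.0 CPM, log2 ratio 1.58, 1.38 to 1.79) and Tgm2 lower (7.40 and 3.32 CPM, -1.16, -1.59 to -0.75). Over all genes, 3.29% differed 2-fold in either direction in follicle cells. Rarres1 was highest in sebaceous-like cells, with 256 UMIs (252 CPM) in control and 432 UMIs (532 CPM) in Gli2EKO. In epidermal cells none of 6 differed 2-fold, beside 3.18% of all genes. Dhrs3, which turns retinaldehyde back into retinol, had log2 ratios of 0.33 in follicle, 0.06 in epidermal and 0.57 (0.35 to 0.79) in dermal cells, with 34.0 CPM in control and 50.4 CPM in Gli2EKO in the latter.

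For each member, the genes most like it were those with the highest Pearson correlation of log2(CPM + 10) across 17 classes, taken in each library among 11263 genes. Classes of 1 library share its depth and its free RNA, and the correlations are descriptions. Aldh1a3 was most like Them4 (r = 0.95 in control and 0.93 in Gli2EKO), then Whrn and Gmcl1. Crabp1 was most like Alx4 (0.99 and 0.99), one of the markers that named the dermal papilla-like class, then Galnt9 and Zic4. Cyp26b1 was most like Pth1r (0.97 and 0.99), Svep1 and Tmem132c. Rarb was most like Npy (0.97 and 0.97), Synpr and the pigment cell gene Slc24a5. Crabp2 was most like Rarres1 (0.80 and 0.87), a retinoic acid responsive gene, then Cebpa and Snrpn. Rarg was most like Mcc (0.90 and 0.88), and Aldh3a1 most like Gm42906 (0.81 and 0.69), Ephx2 and Scube2. For the rare Aldh1a1 and Aldh1a2 the closest genes, Ccbe1 and Wfdc18, had mean correlations of 0.75 and 0.75.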

How the data were processed

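The authors deposited 1 filtered matrix of raw UMI counts per library, from a 10x polyA assay; their processing notes name Cell Ranger 9.0.1 and GRCm39. The study's limits were applied (more than 1000 but fewer than 8000 genes detected, mitochondrial share below 15%), and the 8% of cells with the highest Scrublet score (scanpy 1.11.5) in each library were removed as likely doublets. Cells were clustered in R 4.3.3 with Seurat 5.3.0 (2000 variable genes without the members and the 50 other listed genes, 20 principal components, Harmony written out in the script, resolution 0.5), first all cells and then keratinocytes and other cells apart. Clusters that scored over 1.5 for 2 keratinocyte lists were divided by the resolution 1 clusters.

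A cluster took the name of the marker list with the highest mean log2 ratio, given a score of at least 0.8, at least 3 detected markers and no more markers of another list than of its own among its top 10 genes. A cluster with a median UMI count far below that of all kept cells and none of its own markers among the top 10 genes stayed unnamed. Keratinocyte clusters led by both Tagln and Acta2 stayed unnamed. The lowest score, the limit for setting clusters aside as not keratinocytes, the division and the Tagln/Acta2 rule were chosen after seeing the data, and the members and lists were chosen with earlier results of these data known. Unnamed clusters counted in the compartment of their best list: 280 Tagln/Acta2 keratinocytes and 35 cells of cluster 14 in the follicle, and 36 cells in the dermis.

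Poisson, Clopper-Pearson and conditional binomial intervals (95%, scipy 1.17.1) were tested on simulated data. Ratios were given from 20 UMIs over both libraries, counts of 2-fold differences from 50. Named genes were the members, listed genes, markers, leading genes of clusters (found in at least 25% of their cells) and the 3 genes most like each member, from 200 UMIs in each library. Alternatives changed doublet removal, cell limits, integration, resolution, the genes kept out of clustering, scaling, averaging over cells, class weights, assignment of cells and thinning. Members' coordinates are those of GENCODE M39, a later release than the authors' annotation, matched by gene ID. An item on the lists is not reported here, nor are the dermal counts of 2 lists that need it.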

Additional observations from a re-analysis of the deposited data

Results flagged for a closer look

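For 2 of the 9 members the intervals of the log2 ratio (Gli2EKO over control) lay above 0 in follicle cells and below 0 in epidermal cells. The share of all genes with this pattern was not counted, so whether 2 of 9 is unusual is not known. Aldh3a1 had 0.74 in follicle and -1.59 in epidermal cells, and Crabp2 had 0.71 and -0.75. The difference between the compartments was not tested, since each rests on 1 library per genotype. The 5 highest cells held 49.6% of the control and 61.0% of the Gli2EKO Aldh3a1 UMIs of epidermal cells, and 37.6% and 49.1% of the Crabp2 UMIs of follicle cells. The same signs, with intervals that left out 0, were found for other listed genes: Rdh11 (0.24 and -0.48), Rdh12 (0.79 and -0.27), Adh7 (0.50 and -1.05) and Rarres1 (1.58 and -0.65). Further listed genes had 1 sign in both compartments, among them Adh5 (0.20 and 0.29), Fabp5 (0.42 and 0.49) and Dhrs9 (-0.75 and -1.20). These listed genes were not set against the share of all genes either. With the Gli2EKO classes weighted as in control, Aldh3a1 had 0.21 and Crabp2 0.43 in follicle cells, and Crabp2 -0.44 in epidermal cells.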

How the results depend on the processing

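Of 216 compartment log2 ratios recomputed under alternatives, 198 stayed within the counting interval of the reported value. The others were as follows, and the cause was not tested except where cells were reweighted or left out. Without doublet removal, Aldh3a1 had 0.62 in follicle and -1.004 in epidermal cells and Aldh1a3 -1.19 in epidermal cells, where the reported 0.32 had an interval that held 0. With only a minimum of 500 detected genes, Crabp2 had 0.25 in follicle cells, and Aldh1a3 -0.98 and Aldh3a1 -0.91 in epidermal cells. Without integration, Crabp2 had 0.40 in follicle cells, Aldh3a1 -1.09 in epidermal cells, and Crabp2 in companion/suprabasal follicle-like cells turned from 2.52 to -0.29. At resolution 1.0, Aldh3a1 had -2.72 in epidermal cells. As means over cells, Aldh1a3 had -1.22 and Crabp2 0.32 in follicle cells, and Cyp26b1 -0.14 in dermal cells. With the Gli2EKO classes weighted as in control, follicle values were -0.91 for Aldh1a3, 0.21 for Aldh3a1 and 0.43 for Crabp2, and Crabp2 had -0.44 in epidermal cells. Without the 5 highest cells of each library, an alternative chosen after seeing the data like that of named classes alone, follicle values were -1.87 for Aldh1a3 and 0.42 for Crabp2.

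Within classes, 146 log2 ratios stayed within their interval, 21 moved and 1 was counted as reversed. Of the CPM levels recomputed, 125 were counted as the same and 31 as moved. Crabp1 in dermal papilla-like cells ranged from -1.004 to -0.84 and Cyp26b1 there from -1.004 to -0.77. When each cell was assigned by its own UMIs, Aldh1a3 in Foxq1/Krt75 hair lineage-like cells had 382 CPM in control and 106 CPM in Gli2EKO. The scaling alternative shifted ratios by at most 0.08. IFE granular-like values could not be given with 15% of cells removed as doublets or with the 500-gene minimum, since no cluster took that name. Shares of cells rose with depth, and 36 of 40 moved when thinning changed. No paired analysis was possible because each genotype has 1 library and no test was made. Classes of under 50 cells limit the Gli2EKO hair lineages, and the intervals cover counting error only.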
